A study of Homo sapiens with 10 samples.

Results

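Collagens are secreted or membrane-bound proteins whose chains wind into triple helices and build much of the matrix around cells. Fibrillar collagens polymerise into striated fibrils, fibril-associated collagens with interrupted triple helices (FACIT) sit on the fibril surface, type IV collagen forms the sheet-like network of basement membranes, and other classes make beaded filaments, anchoring fibrils, hexagonal lattices or span the plasma membrane. The retinal pigment epithelium rests on a basement membrane that is part of Bruch's membrane, the collagen-rich layer between the retina and its blood supply. Collagen genes were taken as every row of the deposited count table whose gene name reads COL, a number, A and a number. This gave 44 of 62700 genes, namely 11 fibrillar, 6 type IV and 10 FACIT chains and 17 chains of other classes.

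The study compared RNA of 5 CCAR1 knockout samples and 5 parental samples of RPE p53-/- cells, a human line that originates from the retinal pigment epithelium and lacks p53 in both genotypes, to look for effects of the knockout across the genome. CCAR1 is a cell cycle and apoptosis regulator that the series title calls a splicing factor. Knockout and parental cells shared a DMEM/F12 medium with 10% fetal bovine serum, and polyadenylated RNA was sequenced. Whether replicates of a genotype came from separate cultures, and whether the knockout population is 1 clone, does not appear in the labels. The p-values therefore reflect only how far these samples vary, possibly for technical reasons, and effects of the knockout cannot be told apart from other differences between the populations.

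CPM stands for counts per 1e6 of the library total after TMM scaling. A gene was called higher or lower at an adjusted p under 0.05 (edgeR's quasi-likelihood test, Benjamini-Hochberg, 18979 genes tested). Replicates 1 to 3 of each genotype had totals of 52.6 to 65.2 times 1e6 counts (shallow libraries) and replicates 4 and 5 of 321 to 385 times 1e6 counts (deep libraries), a split that the labels do not explain. CCAR1 itself measured 92.3, 95.6, 88.5, 126 and 126 CPM in knockout replicates 1 to 5, against 125, 133, 134, 173 and 173 CPM in parental replicates 1 to 5 (log2 fold change -0.48, adjusted p = 0.0201). The genotypes overlapped slightly across depths and not within a depth. This call was lost at -0.31 (adjusted p = 0.121) with the median of chromosome 10, where CCAR1 lies, removed, at -0.42 (adjusted p = 0.0525) with scaling by total count only and at -0.42 (adjusted p = 0.0504) when parental replicate 5 was left out. Protein-coding genes on several chromosomes were lower as a group in the knockout, with median log2 fold changes of -0.41 on chromosome 13, -0.32 on chromosome 6, -0.30 on chromosome 7, -0.28 on chromosome 17 and -0.18 on chromosome 10, against a median of 0.02 over all genes tested. The largest median in the other direction was 0.17, on chromosome 19. Of 8 retinal pigment epithelium markers, 3 (MITF, OTX2 and BEST1) averaged at least 1 CPM in knockout and in parental cells, while RPE65 (0.0251 and 0.0561 CPM), TYR and RLBP1 were near 0, and the keratins KRT8 and KRT18 were at 160 and 183 CPM in knockout cells and 175 and 217 CPM in parental cells.

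Collagen genes moved in both directions in CCAR1 knockout cells. COL14A1, COL4A4, COL4A6, COL6A1, COL7A1, COL8A2, COL4A5, COL27A1 and COL16A1 rose, and COL13A1, COL8A1, COL12A1, COL17A1, COL4A2, COL11A2 and COL5A2 fell. Of the 44 genes, 30 passed the filter on low counts, and of these 9 were called higher, 7 were called lower and 14 were not called. The called share was 53.3%, against 36.6% of all genes tested (19.7% higher and 16.9% lower), and the median log2 fold change over the 30 was 0.03 (-0.05 to 0.30 with 1 library left out). When the replicate number was fitted as a block, 10 were called higher and 8 lower. That was 60.0% against 61.2% of all genes (31.1% higher and 30.1% lower), so the share of collagens called is near the background there. Whether samples of the same number belong together was not tested. With knockout libraries corrected for the median of each chromosome, 10 were higher and 4 lower, 46.7% against 33.5% of all genes (20.0% higher and 13.5% lower).

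**Figure D1:**
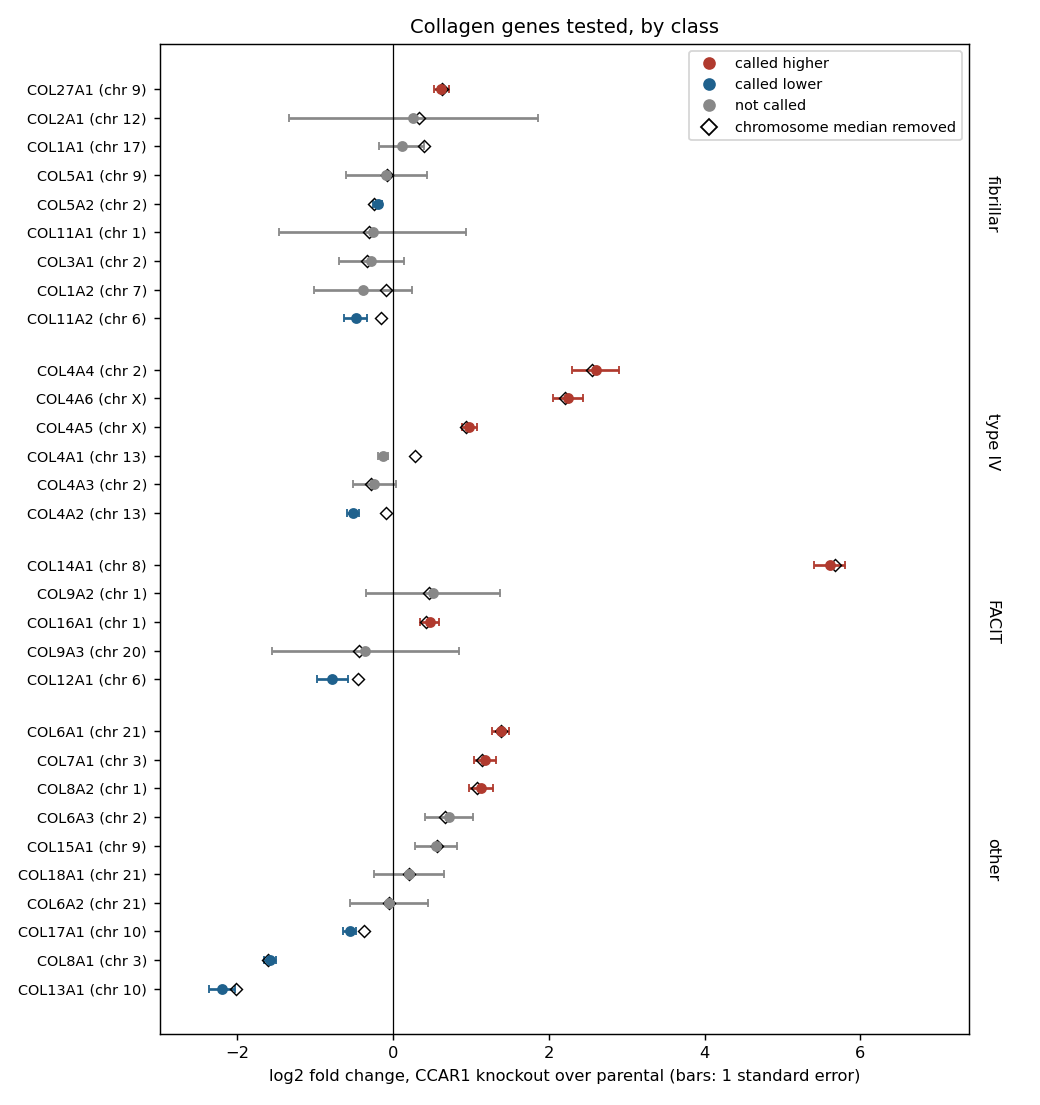
Log2 fold change of the 30 collagen genes tested, CCAR1 knockout over parental, with bars of 1 standard error, by class; red and blue points were called higher and lower, grey ones were not called, and open diamonds give the value with the median of the gene's chromosome removed. COL14A1 stands at 5.61, the other called genes lie between -2.20 and 2.60, and the diamonds of COL4A1, COL4A2, COL12A1 and COL11A2 lie right of their points.

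The libraries did not overlap between genotypes for 16 of the 30 genes tested, 9 higher and 7 lower in knockout cells, against 30.6% of all genes tested (16.0% higher and 14.6% lower). Within shallow libraries and within deep libraries, ranges were apart in the same direction for 18, against 53.9% of all genes. The 16 with ranges apart are the called genes except COL11A2, plus COL4A1.

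**Figure D2:**
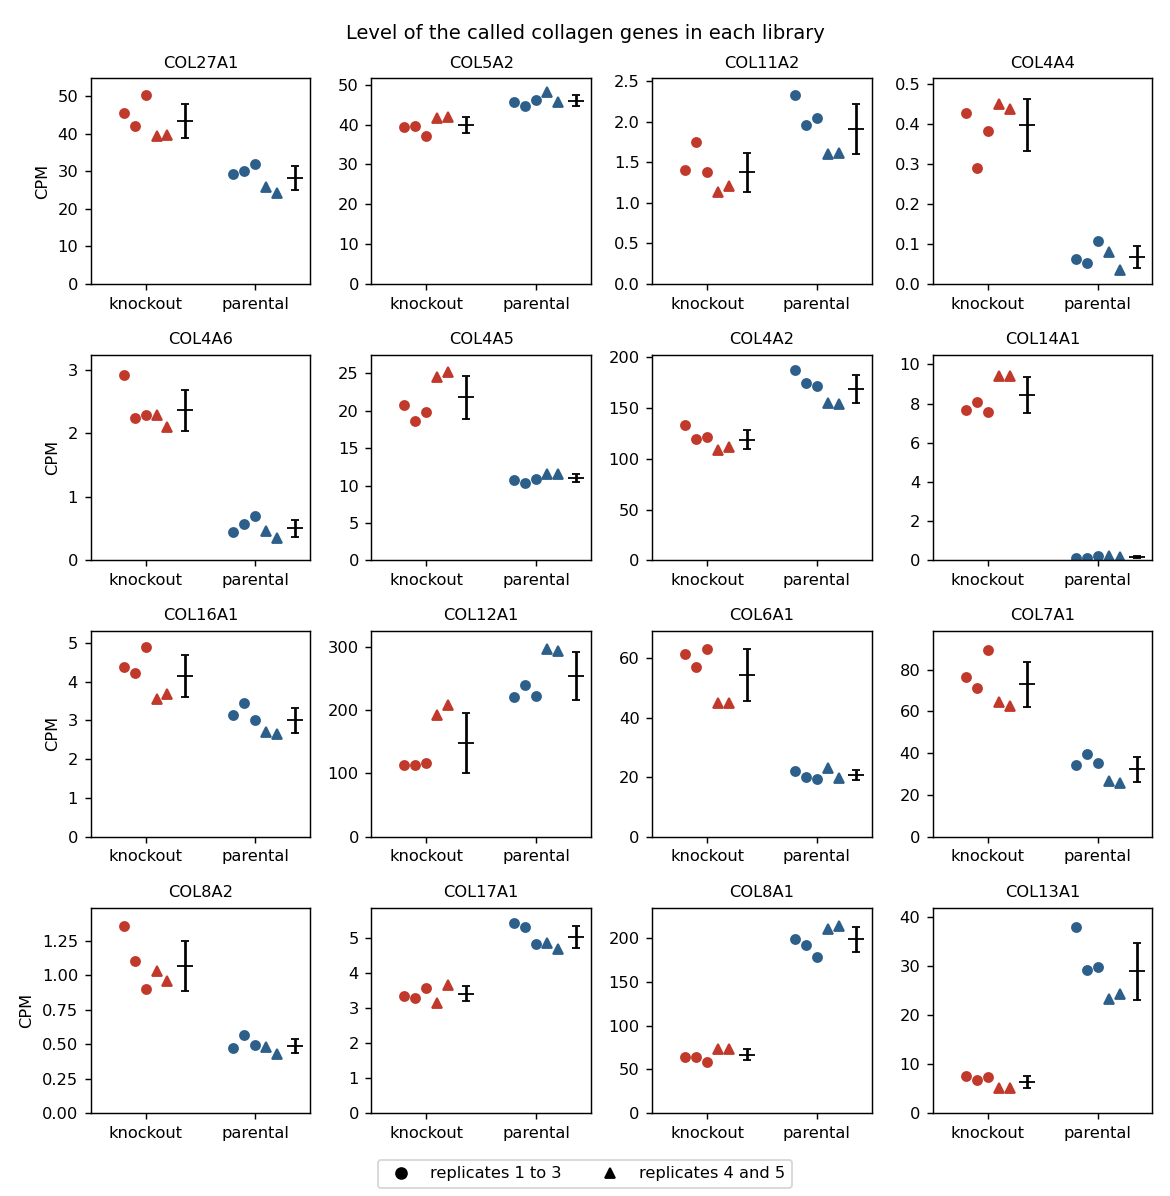
Level in CPM of each of the 16 called collagen genes in the 5 CCAR1 knockout and 5 parental libraries; circles are replicates 1 to 3, triangles replicates 4 and 5, and the bar gives the mean ± SD (n = 5). In 15 of the panels every knockout library lies on 1 side of every parental library, and in the COL11A2 panel they overlap.

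The summed level of all 44 genes was lower in knockout cells. It was 709, 677, 685, 747 and 752 CPM in knockout replicates 1 to 5, against 905, 902, 872, 1000 and 935 CPM in parental replicates 1 to 5. The highest knockout library lay below the lowest parental library. COL8A1, COL12A1 and COL4A2 together made up 46.6 ± 4.17% of this sum in knockout cells and 67.4 ± 2.02% in parental cells (SD, n = 5 each). Summed levels of fibrillar genes overlapped between genotypes at 127 ± 7.46 CPM in knockout cells and 121 ± 23.9 CPM in parental cells. Type IV genes summed to 196 ± 9.53 CPM in knockout cells and 238 ± 15.9 CPM in parental cells, FACIT genes to 163 ± 46.6 and 259 ± 37.0 CPM, and genes of other classes to 228 ± 12.8 and 305 ± 13.4 CPM, with ranges apart for each. The lower sums rest on COL8A1, COL12A1 and COL4A2. The other 41 genes, a set chosen after these values were seen, summed to more in knockout cells, at 380 ± 14.6 CPM (360 to 398) in knockout libraries and 301 ± 23.9 CPM (273 to 339) in parental libraries. Without COL8A1 the genes of other classes summed to 162 ± 18.8 CPM in knockout and 105 ± 8.54 CPM in parental cells, and without COL12A1 the FACIT genes to 13.8 ± 0.516 and 4.43 ± 1.21 CPM, both with the genotypes apart. Without COL4A2 the type IV genes summed to 70.9 to 83.8 CPM in knockout and 68.1 to 72.4 CPM in parental libraries, which overlap. No test was run on these sums, and in RNA from a mixed population fewer cells that express a gene and less RNA per cell cannot be told apart.

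**Figure D3:**
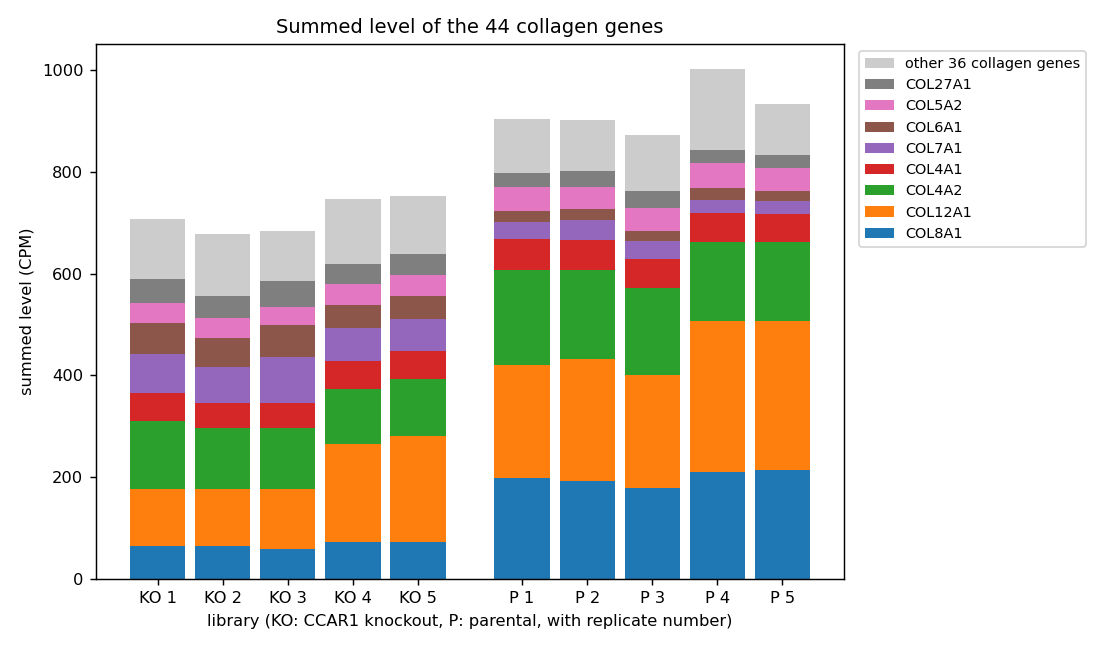
Summed level of the 44 collagen genes in CPM in each library (KO, CCAR1 knockout; P, parental), stacked by the 8 genes named in the key and the other 36. Knockout bars reach 677 to 752 CPM and parental bars 872 to 1000 CPM, and the segments of COL8A1, COL12A1 and COL4A2 are shorter in the knockout bars while those of COL6A1 and COL7A1 are taller.

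Per length of the gene's merged exons, the order of the collagen transcripts differed between genotypes. In knockout cells COL12A1 was at 11.9 ± 3.77 CPM per kb, COL6A1 at 10.2 ± 1.63, COL8A1 at 7.08 ± 0.663, COL7A1 at 6.58 ± 0.986 and COL4A2 at 6.15 ± 0.487 CPM per kb, and neighbours in this order lay within 1 SD of each other except COL6A1 and COL8A1. In parental cells COL8A1 was at 21.2 ± 1.55 CPM per kb and COL12A1 at 20.4 ± 3.04, which lay within their spread, followed by COL4A2 at 8.73 ± 0.738, COL5A2 at 6.17 ± 0.171 and COL13A1 at 4.90 ± 0.983 CPM per kb. COL6A1 was the second in knockout cells and the seventh in parental cells. The order depends on the length used: per length of the longest annotated transcript COL4A2 came first in knockout cells at 18.3 CPM per kb, and COL8A1 first in parental cells at 34.9 CPM per kb.

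Fibrillar collagens form the load-bearing fibrils of connective tissue. Of 9 fibrillar genes tested, 1 was called higher, 2 were called lower and 6 were not called, a called share of 33.3% against 36.6% of all genes. Their median log2 fold change was -0.20, with 0.25 in shallow and -0.43 in deep libraries alone and -0.23 to -0.09 when 1 library was left out. With the replicate block 33.3% of the fibrillar genes tested were called, against 61.2% of all genes. COL27A1 (chromosome 9, 114155560 to 114312511), a fibrillar chain known from cartilage, had 45.5, 42.0, 50.4, 39.5 and 39.8 CPM in knockout replicates 1 to 5, against 29.2, 30.0, 31.9, 25.9 and 24.2 CPM in parental replicates 1 to 5. All knockout libraries lay above all parental ones (log2 fold change 0.62, SE 0.098, adjusted p = 6.19e-04). COL5A2 (chromosome 2, 189031896 to 189225312), a chain of type V collagen that helps to start fibrils, had 39.3, 39.7, 37.0, 41.7 and 41.9 CPM in knockout libraries, against 45.7, 44.6, 46.1, 48.1 and 45.6 CPM in parental libraries. The shift was small but without overlap (log2 fold change -0.20, SE 0.056, adjusted p = 0.0154), and its call was lost when libraries were scaled by total count only (-0.15, adjusted p = 0.113) or when no filter on low counts was used (-0.22, adjusted p = 0.111). COL11A2, a type XI chain encoded on chromosome 6, had 1.40, 1.75, 1.38, 1.13 and 1.21 CPM in knockout libraries, against 2.33, 1.96, 2.05, 1.60 and 1.62 CPM in parental libraries. The genotypes overlapped, and the call (log2 fold change -0.48, SE 0.15, adjusted p = 0.0322) was lost in 7 of the 10 runs that left out 1 library, when no filter on low counts was used (-0.49, adjusted p = 0.0737) and with the chromosome median removed (-0.16, adjusted p = 0.497).

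The chains of the abundant fibril collagens I and III, and COL5A1, were not called, and their levels varied more between libraries of 1 genotype than between genotypes. COL1A1 had 20.9, 23.2, 16.2, 27.5 and 18.5 CPM in knockout libraries, against 11.8, 14.7, 17.6, 36.8 and 17.1 CPM in parental libraries (log2 fold change 0.11, adjusted p = 0.814). COL1A2 had 7.09, 7.39, 3.79, 18.0 and 13.2 CPM in knockout libraries, against 4.67, 4.80, 5.48, 34.5 and 15.4 CPM in parental libraries (-0.39, adjusted p = 0.691). Both chains of type I collagen were highest in parental replicate 4, and without that library their log2 fold changes were 0.47 (adjusted p = 0.0634) and 0.38 (adjusted p = 0.64). COL5A1 was also highest there, at 2.41 CPM. COL3A1, the chain of type III collagen, ran from 4.18 to 13.4 CPM in knockout libraries and from 3.57 to 15.7 CPM in parental libraries (-0.28, adjusted p = 0.668). COL1A2 was higher in deep than in shallow libraries of both genotypes, while COL1A1 overlapped between the depths. COL3A1 averaged lower in deep libraries, at 4.72 against 10.8 CPM in shallow ones in knockout cells and 8.24 against 11.5 CPM in parental cells. The fibroblast and stromal markers differed in direction with depth. THY1 averaged lower in deep libraries, at 377 against 467 CPM in shallow ones in knockout cells and 320 against 366 CPM in parental cells. PDGFRB averaged lower too, while PDGFRA and DPT averaged higher. DCN and LUM, which are in the same list, were higher in deep than in shallow libraries, as COL1A2 was. DCN had 1.94, 1.71, 0.736, 7.37 and 9.81 CPM in knockout libraries, against 1.35, 1.18, 1.18, 13.6 and 9.16 CPM in parental libraries, and LUM reached 2.27 CPM in knockout replicate 5 and 3.90 CPM in parental replicate 4. What part these transcripts have in the type I values was not tested.

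COL2A1 and COL11A1, chains of cartilage fibrils, and the type IX chains COL9A2 and COL9A3 were lower in deep than in shallow libraries of both genotypes and were not called. COL2A1 had 1.88, 1.98, 1.08, 0.0146 and 0.00297 CPM in knockout libraries, against 1.55, 1.22, 1.37, 0.00793 and 0.00628 CPM in parental libraries. Deep libraries of both genotypes were at most at 0.0146 CPM, and no shallow library was below 1.08 CPM (log2 fold change 0.26, adjusted p = 0.927). COL9A3 was at 0.557 to 1.66 CPM in the 6 shallow libraries and at 0.0314 to 0.0595 CPM in the 4 deep ones, with a log2 fold change of -0.36 (adjusted p = 0.864), and COL9A2 had 0.51 (adjusted p = 0.705). The summed level of 17 muscle, erythroid and liver markers followed the same split, at 342 to 514 CPM in shallow knockout and 426 to 658 CPM in shallow parental libraries, against 3.50 and 3.54 CPM in the deep knockout and 2.24 and 2.86 CPM in the deep parental libraries. Of 4 cartilage markers, ACAN was near 0 in both genotypes (0.0110 CPM in knockout and 0.0116 CPM in parental cells). COMP was low, at 0.119 CPM in knockout and 0.162 CPM in parental cells, and averaged higher in deep libraries. MATN3 averaged higher in shallow libraries, at 3.19 against 2.30 CPM in deep ones in knockout cells and 3.06 against 1.57 CPM in parental cells. SOX9 was at 55.0 CPM in knockout and 66.2 CPM in parental cells. What part the transcripts of other tissues have in these collagen values was not tested.

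**Figure D4:**
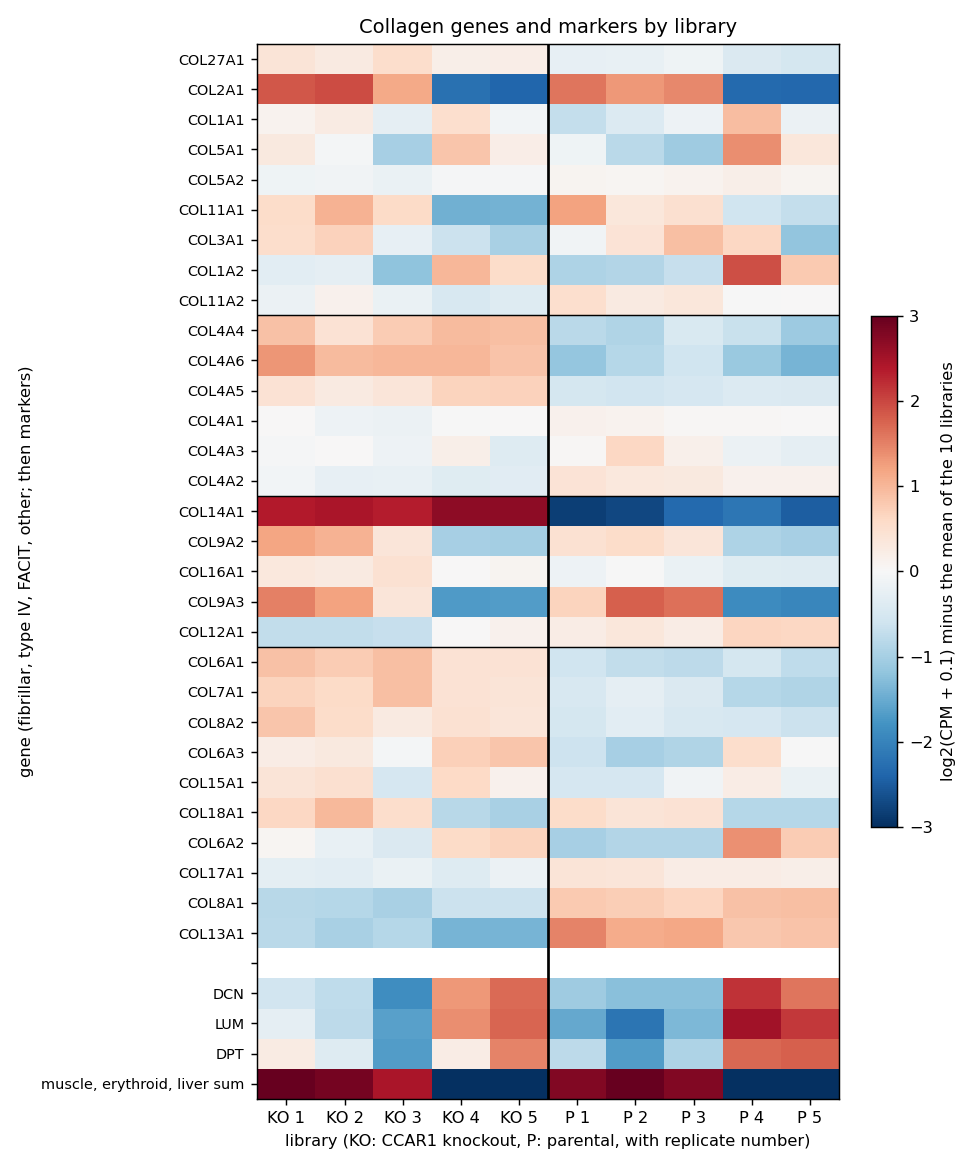
Log2(CPM + 0.1) of each tested collagen gene minus its mean over the 10 libraries (KO, CCAR1 knockout; P, parental), with DCN, LUM, DPT and the summed muscle, erythroid and liver markers below; colours stop at 3 in either direction. COL2A1, COL9A2, COL9A3 and COL11A1 follow the split between replicates 1 to 3 and replicates 4 and 5, as the summed markers do, while COL14A1, COL4A4, COL4A6, COL8A1 and COL13A1 follow genotype.

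FACIT collagens bridge fibrils to their surroundings. Of 10 FACIT genes 5 were tested, of which 2 were called higher and 1 lower (60.0%, against 36.6% of all genes). With the replicate block, where 61.2% of all genes were called, the share of these 5 was again 60.0%. Their median log2 fold change of 0.47 was at 0.27 with the replicate block, 0.07 without knockout replicate 1, 0.17 without knockout replicate 2, 0.22 without parental replicate 4 and 0.21 without parental replicate 5. COL14A1 (chromosome 8, 120059780 to 120372036), a fibril-surface collagen of dense connective tissue, had 7.69, 8.06, 7.58, 9.43 and 9.42 CPM in knockout libraries, against 0.110, 0.124, 0.194, 0.230 and 0.170 CPM in parental libraries. Every knockout library was far above every parental one, in shallow and deep libraries alike (48.8-fold higher, log2 fold change 5.61, SE 0.20, adjusted p = 2.44e-08). COL12A1 (chromosome 6, 75084326 to 75206051), a related FACIT chain found in many tissues, had 113, 113, 117, 192 and 208 CPM in knockout libraries, against 221, 240, 222, 297 and 294 CPM in parental libraries. It was lower in all knockout libraries (log2 fold change -0.78, SE 0.20, adjusted p = 0.0116), and its level was higher in deep than in shallow libraries of the same genotype. The median of chromosome 6 was -0.32, and with it removed the log2 fold change was -0.45 and no longer called (adjusted p = 0.112). COL16A1 (chromosome 1, 31652247 to 31704319), which joins other fibrils as a minor component, had 4.39, 4.23, 4.89, 3.54 and 3.69 CPM in knockout libraries, against 3.15, 3.46, 3.02, 2.71 and 2.65 CPM in parental libraries. The ranges nearly met (log2 fold change 0.47, SE 0.12, adjusted p = 0.00938).

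COL14A1 and COL12A1, which are related FACIT chains, thus moved in opposite directions. Their order by length-scaled level stayed as it was, since COL12A1 was still the more abundant in knockout cells at 11.9 ± 3.77 CPM per kb, against 0.976 ± 0.107 CPM per kb for COL14A1. In parental cells COL12A1 was at 20.4 ± 3.04 and COL14A1 at 0.0191 ± 0.00573 CPM per kb.

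Type IV collagen is made of 6 chains encoded as 3 head-to-head gene pairs, which assemble as α1α1α2, α3α4α5 and α5α5α6 trimers. All 6 genes were tested, 3 were called higher and 1 lower (66.7%, against 36.6% of all genes), and the median log2 fold change was 0.43. With the replicate block 3 were called higher and 2 lower (83.3%, against 61.2% of all genes). The members of each pair start close to each other and are read in opposite directions. For each gene the RefSeq start nearest to a start of its partner was taken. These starts lie 127 bases apart for COL4A1 and COL4A2, 419 for COL4A3 and COL4A4, and 380 for COL4A5 and COL4A6. Their promoters are shown because partners that share this stretch of DNA had different fold changes. The windows below run from 250 bases before to 50 after the start (RefSeq, GRCh38.p14; 32 of the 44 collagen genes had a window), 5′ to 3′ on the gene's own strand, and capitals mark matches on either strand to CCAAT and to GGGCGG. The window of COL4A2 shares 226 of its 300 bases with that of COL4A1 and is not shown.
COL4A1 (chr13:110307108-110307407, minus strand): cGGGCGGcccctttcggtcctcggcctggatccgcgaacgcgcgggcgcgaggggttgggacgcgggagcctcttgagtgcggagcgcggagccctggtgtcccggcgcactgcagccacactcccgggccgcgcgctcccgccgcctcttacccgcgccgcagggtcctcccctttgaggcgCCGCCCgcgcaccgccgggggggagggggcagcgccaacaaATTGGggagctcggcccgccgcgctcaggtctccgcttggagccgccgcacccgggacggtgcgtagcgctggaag
COL4A3 (chr2:227164374-227164673, plus strand): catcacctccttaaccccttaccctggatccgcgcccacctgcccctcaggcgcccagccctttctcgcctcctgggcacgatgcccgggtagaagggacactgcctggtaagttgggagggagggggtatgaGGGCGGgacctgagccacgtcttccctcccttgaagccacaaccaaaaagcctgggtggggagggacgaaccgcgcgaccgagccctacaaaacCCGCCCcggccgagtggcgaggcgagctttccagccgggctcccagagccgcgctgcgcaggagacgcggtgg
COL4A4 (chr2:227164156-227164455, minus strand): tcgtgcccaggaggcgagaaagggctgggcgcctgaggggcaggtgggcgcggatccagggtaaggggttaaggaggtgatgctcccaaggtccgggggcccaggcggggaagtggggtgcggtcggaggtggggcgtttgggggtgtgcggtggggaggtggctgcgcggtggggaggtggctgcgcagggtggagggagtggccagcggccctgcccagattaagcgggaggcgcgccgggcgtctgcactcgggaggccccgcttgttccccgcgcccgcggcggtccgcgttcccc
COL4A5 (chrX:108439588-108439887, plus strand): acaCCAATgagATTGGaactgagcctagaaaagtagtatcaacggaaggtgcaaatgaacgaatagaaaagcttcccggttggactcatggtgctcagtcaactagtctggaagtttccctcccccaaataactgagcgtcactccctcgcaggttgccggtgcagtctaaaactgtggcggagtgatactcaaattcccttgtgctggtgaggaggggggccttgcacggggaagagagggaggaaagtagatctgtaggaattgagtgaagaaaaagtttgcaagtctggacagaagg
COL4A6 (chrX:108439409-108439708, minus strand): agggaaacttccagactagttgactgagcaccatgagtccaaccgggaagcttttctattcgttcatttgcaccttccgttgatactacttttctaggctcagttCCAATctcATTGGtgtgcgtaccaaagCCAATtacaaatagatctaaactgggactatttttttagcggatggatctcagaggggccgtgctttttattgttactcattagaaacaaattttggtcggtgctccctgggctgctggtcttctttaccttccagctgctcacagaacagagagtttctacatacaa
The COL4A1 window is 76.7% G or C and holds 1 CCAAT and 2 GGGCGG matches, those of COL4A3 and COL4A4 are 67.7% and 74.0% G or C with 2 and 0 GGGCGG matches and no CCAAT, and those of COL4A5 and COL4A6 are 49.3% and 43.7% G or C with 2 and 3 CCAAT and no GGGCGG matches. None of these windows holds TATAAA on either strand. Over all 35116 RefSeq windows of this length, 34.6% held CCAAT, 45.0% GGGCGG and 11.5% TATAAA. These matches describe the letters only.

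COL4A2 and COL4A1, which encode the network of nearly all basement membranes, had the highest type IV levels per kb of exon, 6.15 and 3.60 CPM per kb in knockout cells and 8.73 and 3.93 CPM per kb in parental cells. COL4A2 (chromosome 13, 110305812 to 110513209) had 133, 119, 121, 109 and 112 CPM in knockout libraries, against 187, 175, 172, 155 and 154 CPM in parental libraries. It was lower in every knockout library (log2 fold change -0.51, SE 0.078, adjusted p = 5.33e-04). COL4A1 (chromosome 13, 110148963 to 110307233) had 55.7, 49.5, 49.1, 54.8 and 55.9 CPM in knockout libraries, against 61.0, 59.8, 56.3, 56.5 and 56.0 CPM in parental libraries. The genotypes were apart by a narrow margin, and the fall was not called (log2 fold change -0.13, SE 0.063, adjusted p = 0.144). It was called with the replicate block (-0.13, adjusted p = 0.0364), with depth as a term (-0.13, adjusted p = 0.0298) and in DESeq2 (adjusted p = 0.0272). In shallow libraries alone it was called too (-0.21, adjusted p = 0.00984), but not in deep libraries alone (-0.04, adjusted p = 0.158). The median of chromosome 13 was -0.41, and with it removed COL4A2 was at -0.09 (adjusted p = 0.414) and COL4A1 at 0.28 (adjusted p = 0.00534). Relative to its chromosome, COL4A2 was therefore not called and COL4A1 was called higher. The annotated genes overlap near their starts on opposite strands, and whether reads were counted by strand is not stated, so reads of the overlap could be credited to either.

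The ratio of COL4A1 to COL4A2 within a library, in CPM per kb, was 54.9, 54.7, 52.9, 65.8 and 65.5% in knockout libraries, against 42.6, 44.8, 43.0, 47.8 and 47.7% in parental libraries. Every knockout library had the larger share of COL4A1, with means of 58.8 ± 6.34% in knockout cells and 45.2 ± 2.49% in parental cells.

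The other 4 type IV chains, which build the networks of specialised basement membranes such as those of kidney, eye and smooth muscle, were at lower levels. COL4A5 (chromosome X, 108439844 to 108697545) had 20.8, 18.6, 19.9, 24.5 and 25.2 CPM in knockout libraries, against 10.7, 10.4, 10.9, 11.6 and 11.5 CPM in parental libraries. COL4A6 (chromosome X, 108155607 to 108439497), its partner, had 2.92, 2.23, 2.28, 2.28 and 2.09 CPM in knockout libraries, against 0.441, 0.565, 0.690, 0.460 and 0.355 CPM in parental libraries. Both chains of the α5α5α6 trimer rose without overlap, COL4A5 by a log2 fold change of 0.98 (SE 0.095, adjusted p = 2.19e-05) and COL4A6 by 2.25 (SE 0.19, adjusted p = 7.50e-06), and the COL4A6 to COL4A5 ratio of CPM per kb was 14.1 ± 2.90% in knockout cells and 5.86 ± 1.65% in parental cells. COL4A4 (chromosome 2, 227002711 to 227164453) had 0.428, 0.289, 0.382, 0.450 and 0.438 CPM in knockout libraries, against 0.0630, 0.0530, 0.107, 0.0793 and 0.0348 CPM in parental libraries. It rose without overlap but from few reads, with a total of 361 counts over the knockout and 54 over the parental libraries (6.08-fold higher, log2 fold change 2.60, SE 0.30, adjusted p = 7.27e-05). COL4A3 (chromosome 2, 227164565 to 227314792), the partner of COL4A4 and the α3 chain of the same trimer, ran from 0.138 to 0.249 CPM in knockout libraries and from 0.159 to 0.382 CPM in parental libraries, and was not called (log2 fold change -0.24, SE 0.28, adjusted p = 0.564). COL4A4 to COL4A3 ratios were 123 to 286% in knockout libraries and 12.6 to 40.6% in parental libraries.

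**Figure D5:**
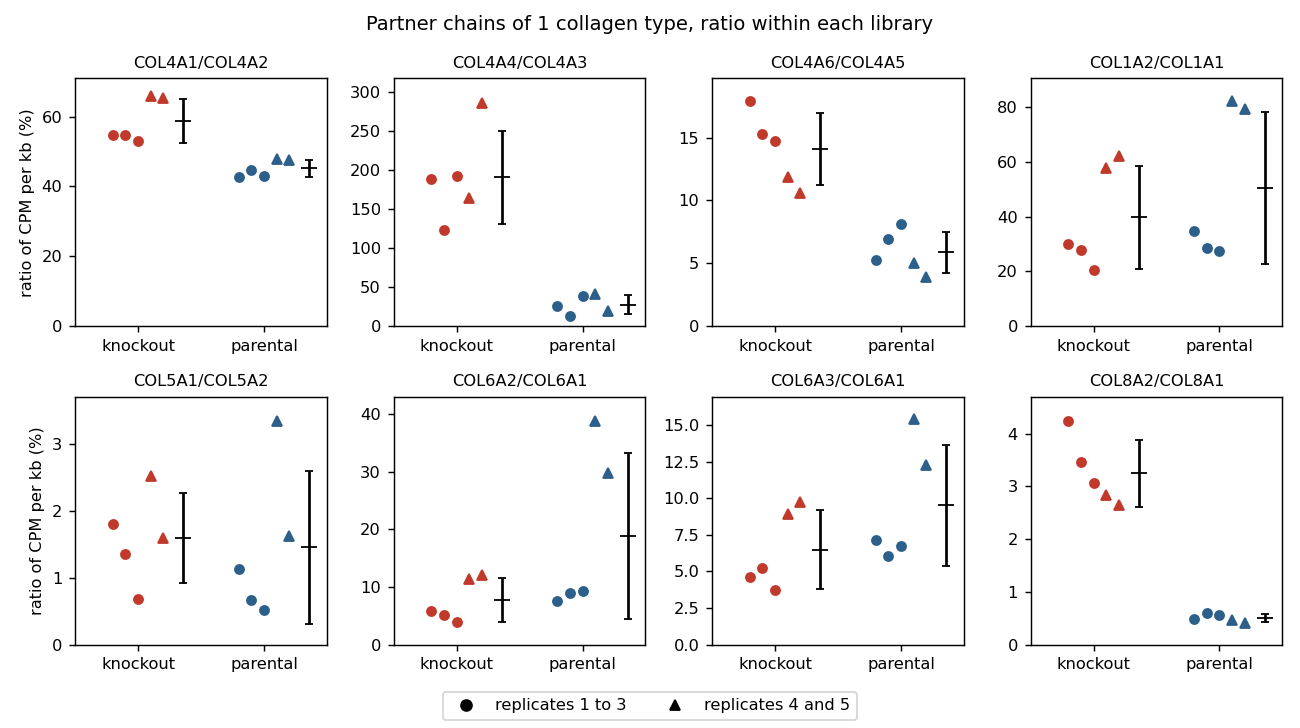
Ratio of the CPM per kb of partner chains of 1 collagen type in each library, in percent, for the 5 CCAR1 knockout and 5 parental libraries; circles are replicates 1 to 3, triangles replicates 4 and 5, and bars give the mean ± SD (n = 5). Knockout libraries lie above all parental ones for COL4A1/COL4A2, COL4A4/COL4A3, COL4A6/COL4A5 and COL8A2/COL8A1, and the genotypes overlap in the other 4 panels.

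Of 10 genes tested from the remaining classes, 3 were called higher and 3 lower (60.0%, against 36.6% of all genes). Their median log2 fold change was 0.37, with 0.71 in shallow libraries alone and 0.60 without parental replicate 4. Type VI collagen forms beaded microfibrils from α1, α2 and a further chain, α3 in most tissues. COL6A1 (chromosome 21, 45981737 to 46005050) had 61.3, 57.0, 63.0, 45.0 and 45.1 CPM in knockout libraries, against 22.1, 20.1, 19.4, 23.2 and 19.6 CPM in parental libraries. It rose in every knockout library (2.60-fold, log2 fold change 1.38, SE 0.11, adjusted p = 7.94e-06). COL6A3 had 10.5, 11.0, 8.71, 14.8 and 16.2 CPM in knockout libraries, against 5.81, 4.45, 4.81, 13.1 and 8.88 CPM in parental libraries. It was higher in the knockout within shallow and within deep libraries, but the pooled ranges overlapped and it was not called (log2 fold change 0.72, SE 0.31, adjusted p = 0.096). COL6A3 was called higher with the replicate block (0.77, adjusted p = 0.00105) and without parental replicate 4 (1.02, adjusted p = 0.0116). COL6A2 had 3.59, 2.96, 2.51, 5.17 and 5.49 CPM in knockout libraries, against 1.68, 1.82, 1.82, 9.05 and 5.88 CPM in parental libraries. It was higher in the knockout among shallow libraries (log2 fold change 0.76, adjusted p = 9.28e-04) and lower among deep ones (-0.51, adjusted p = 0.304), and pooled it was at -0.05 (adjusted p = 0.961). The 3 main type VI chains thus did not shift in step, and the COL6A2 to COL6A1 ratio of CPM per kb was 7.68 ± 3.77% in knockout cells and 18.9 ± 14.4% in parental cells, lower in the knockout within each depth.

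Type VII collagen builds the fibrils that anchor epithelial basement membranes to the tissue beneath. COL7A1 (chromosome 3, 48564073 to 48595267) had 76.6, 71.3, 89.6, 64.3 and 62.5 CPM in knockout libraries, against 34.2, 39.7, 35.2, 26.6 and 25.6 CPM in parental libraries. It rose 2.26-fold without overlap (log2 fold change 1.18, SE 0.14, adjusted p = 1.20e-04).

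Type VIII collagen, a short-chain collagen that forms hexagonal lattices, as in the corneal Descemet's membrane, has an α1 and an α2 chain, and these moved in opposite directions. COL8A1 (chromosome 3, 99638475 to 99799226) had 64.5, 63.8, 58.9, 73.2 and 72.9 CPM in knockout libraries, against 199, 192, 179, 211 and 214 CPM in parental libraries. Every knockout library was below every parental library (2.99-fold lower, log2 fold change -1.58, SE 0.082, adjusted p = 2.86e-07). COL8A2 (chromosome 1, 36095236 to 36125220) had 1.36, 1.10, 0.898, 1.03 and 0.955 CPM in knockout libraries, against 0.472, 0.565, 0.495, 0.478 and 0.430 CPM in parental libraries. It rose 2.19-fold (log2 fold change 1.13, SE 0.15, adjusted p = 1.62e-04), and the COL8A2 to COL8A1 ratio of CPM per kb was 3.25 ± 0.637% in knockout cells and 0.498 ± 0.0771% in parental cells. COL8A1 stayed the more abundant chain in both.

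The transmembrane collagens anchor cells to the matrix, and both of those tested fell. COL13A1 (chromosome 10, 69801867 to 69964275), found at cell adhesions and neuromuscular junctions, had 7.54, 6.71, 7.33, 5.03 and 5.03 CPM in knockout libraries, against 37.9, 29.2, 29.7, 23.3 and 24.3 CPM in parental libraries. The genotypes were far apart (4.58-fold lower, log2 fold change -2.20, SE 0.17, adjusted p = 5.25e-06). COL17A1 (chromosome 10, 104031286 to 104085957), a hemidesmosome component, had 3.35, 3.29, 3.57, 3.15 and 3.66 CPM in knockout libraries, against 5.42, 5.30, 4.83, 4.86 and 4.69 CPM in parental libraries. It was lower in every knockout library (log2 fold change -0.56, SE 0.080, adjusted p = 3.10e-04). Both lie on chromosome 10, as CCAR1 does, and with its median removed they were still called, at -2.02 (adjusted p = 9.86e-06) and -0.38 (adjusted p = 0.00377). The multiplexins, which sit at basement membranes and release fragments such as endostatin, were not called. COL18A1 had a log2 fold change of 0.20 (adjusted p = 0.792) and COL15A1 of 0.55 (adjusted p = 0.143). COL15A1 was called higher without knockout replicate 3 (adjusted p = 0.0381).

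A test of whether the knockout difference itself differed between shallow and deep libraries called 2 of the 30 collagen genes, COL12A1 and COL11A1, against 0.601% of all genes tested. COL12A1 fell by 1.00 on the log2 scale in shallow and by 0.58 in deep libraries (difference 0.42, adjusted p = 0.0224). COL11A1 had 0 and 1 counts in the deep knockout libraries, against 30 and 21 counts in the deep parental libraries, while its shallow libraries overlapped at 0.298 to 0.462 CPM in the knockout and 0.247 to 0.535 CPM in the parental cells (interaction adjusted p = 0.033). COL6A1 rose by 1.55 on the log2 scale in shallow and by 1.05 in deep libraries, a difference of -0.48 that was not called (adjusted p = 0.0512) except with scaling by DESeq2 size factors. A count of 0 in knockout replicate 4 allows a level of up to 0.00875 CPM, for counting error only.

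Another 14 collagen genes did not pass the filter on low counts and were not tested in the fit that gave the calls above. They are COL5A3 and COL24A1 (fibrillar), COL9A1, COL19A1, COL20A1, COL21A1 and COL22A1 (FACIT), COL6A5 and COL6A6 (type VI), COL10A1, COL23A1, COL25A1, COL26A1 and COL28A1. Their mean levels were 0.00416 to 0.195 CPM, and their total counts over all 10 libraries were 5 to 255. In deep libraries alone, with 2 knockout and 2 parental samples, COL6A5, COL6A6, COL22A1, COL23A1, COL25A1 and COL26A1 were again not tested. Among the rest of the 14, COL5A3, COL9A1, COL10A1 and COL28A1 did not pass the test and 4 did, as did 57.0% of all genes tested there. COL24A1 had 83 and 76 counts in the knockout libraries, against 29 and 27 counts in the parental libraries (log2 fold change 1.52, adjusted p = 8.17e-05). COL21A1 had 42 and 24 counts in the knockout, against 9 and 7 counts in the parental libraries (2.05, adjusted p = 0.00113), and COL20A1 had 18 and 18 counts, against 4 and 6 counts (1.84, adjusted p = 0.0089). COL19A1 was lower, with 29 and 22 counts in the knockout libraries, against 57 and 56 counts in the parental libraries (-1.13, adjusted p = 0.00342). All 4 are at levels where a few reads move the value.

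Genes that modify, secrete, trim or cross-link collagen chains, assemble with the fibrils or serve as their receptors were taken as a list of 53, of which 51 were tested. In knockout cells 23 were called higher and 4 lower, a called share of 52.9%, and the median log2 fold change was 0.31, against 36.6% and 0.02 over all genes. With the replicate block 31 were higher and 8 lower (76.5%, against 61.2% of all genes). In contrast to the collagen genes themselves, whose calls were split between directions, most called genes of this list were higher, although that difference between the lists was not tested.

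Propeptide removal, which turns procollagen into fibril-forming collagen, had 5 of 7 tested genes higher and none called lower (71.4%, against 36.6% of all genes). With the replicate block 6 were higher (85.7%, against 61.2% of all genes). ADAMTS2, the N-propeptidase of types I to III, had 21.5, 19.1, 21.7, 19.3 and 19.1 CPM in knockout libraries, against 2.42, 3.00, 2.99, 3.45 and 2.88 CPM in parental libraries (log2 fold change 2.77, SE 0.10, adjusted p = 2.44e-08). Its relative ADAMTS14 was at 2.18 ± 0.36 CPM in knockout and 0.347 ± 0.0528 CPM in parental cells (2.65, adjusted p = 7.91e-07). PCOLCE2, an enhancer of C-propeptide cleavage, was at 42.3 ± 2.43 CPM in knockout and 15.2 ± 0.699 CPM in parental cells (1.48, adjusted p = 7.79e-08), and PCOLCE, the other enhancer, was at 3.81 ± 0.558 and 2.62 ± 0.234 CPM (0.53, adjusted p = 0.00489). The ranges of all 4 genes were apart.

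Of 19 modification and folding genes, 9 were higher and 2 lower (57.9%, against 36.6% of all genes), with a median log2 fold change of 0.29 (0.18 in deep libraries alone). The count depends on the fit. With the replicate block 12 were higher and 5 lower (89.5%, against 61.2% of all genes). It was 5 higher and 2 lower without knockout replicate 1, and 6 higher and 2 lower without knockout replicate 2. SERPINH1, the collagen chaperone HSP47, had 416, 428, 435, 324 and 323 CPM in knockout libraries, against 188, 182, 176, 146 and 150 CPM in parental libraries (1.19, SE 0.12, adjusted p = 2.42e-05). PLOD1, a lysyl hydroxylase, was at 219 ± 34.9 CPM in knockout and 132 ± 15.0 CPM in parental cells (0.73, adjusted p = 9.14e-04), and CRTAP, part of the prolyl 3-hydroxylation complex, was at 260 ± 12.3 and 211 ± 5.98 CPM (0.31, adjusted p = 0.00102). P3H2, a prolyl 3-hydroxylase with a preference for type IV collagen, was lower at 13.5 ± 0.596 CPM in knockout and 21.3 ± 1.33 CPM in parental cells (-0.66, adjusted p = 2.50e-05).

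Export genes, which carry procollagen out of the endoplasmic reticulum, had 2 of 5 higher, KLHL12 (log2 fold change 0.29, adjusted p = 0.012) and SEC24D (0.37, adjusted p = 0.0349). That share of 40.0% is near the 36.6% of all genes. With the replicate block 3 were higher (60.0%, against 61.2% of all genes). The count was 0 with no filter on low counts, and 1 when knockout replicate 4 or 5 or parental replicate 1, 2 or 3 was left out. Among the lysyl oxidases that cross-link fibrils 3 of 5 were higher (60.0%, against 36.6% of all genes). They were LOXL3 (0.83, adjusted p = 3.16e-04), LOXL2 (0.42, adjusted p = 0.0115) and LOX (0.41, adjusted p = 0.0118). With the replicate block 4 were higher (80.0%, against 61.2% of all genes). LOX was at 1110 ± 147 CPM in knockout and 836 ± 94.5 CPM in parental cells. Fibril assembly partners had 3 of 7 higher with and without the replicate block. That share of 42.9% stands against 36.6% of all genes without the block and 61.2% with it. FN1, or fibronectin, which templates collagen assembly, had 2750, 2630, 2790, 3500 and 3680 CPM in knockout libraries, against 1130, 1140, 1020, 1160 and 1090 CPM in parental libraries (1.47, SE 0.10, adjusted p = 2.40e-06). SPARC, a collagen-binding matricellular protein, was at 423 ± 20.4 CPM in knockout and 299 ± 9.72 CPM in parental cells (0.50, adjusted p = 4.12e-05), and BGN, a small proteoglycan, was at 1.14 ± 0.252 and 0.465 ± 0.191 CPM (1.31, adjusted p = 0.00899). Of 8 receptor and uptake genes tested, MRC2, an endocytic collagen receptor, was higher (0.55, adjusted p = 0.00487), and DDR1, a collagen-binding kinase encoded on chromosome 6 (-0.68, adjusted p = 0.00278), and ITGA1, a collagen-binding integrin chain (-0.89, adjusted p = 0.00759), were lower. This share of 37.5% is near the 36.6% of all genes. With the replicate block 3 were higher and 3 lower (75.0%, against 61.2% of all genes). DDR1 was no longer called with its chromosome's median removed (-0.36, adjusted p = 0.0676).

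Markers of other cell types moved with genotype in part. The 6 fibroblast and stromal markers summed to 424 to 530 CPM in knockout and 363 to 412 CPM in parental libraries, without overlap, most of it THY1 at 431 ± 54.9 and 348 ± 26.8 CPM. Of this list PDGFRA (log2 fold change 1.65, adjusted p = 0.00393), PDGFRB (0.26, adjusted p = 0.00854) and THY1 (0.31, adjusted p = 0.0257) were called higher. THY1 overlapped between genotypes across depths and not within a depth. DCN, LUM and DPT overlapped between genotypes and were not called. In deep libraries alone LUM was called lower in the knockout (-0.79, adjusted p = 0.0455), and DPT lay lower without a call (-0.83, adjusted p = 0.393). The 5 epithelial markers summed to 283 to 398 CPM in knockout and 323 to 474 CPM in parental libraries. This sum, nearly all of it KRT8 and KRT18, was lower in the knockout within each depth, but of its members only KRT18 was. KRT8 overlapped in shallow libraries, and KRT19 and EPCAM overlapped at both depths. CDH1 overlapped in shallow libraries. In deep ones it had 0.105 and 0.0850 CPM in the knockout, against 0.0835 and 0.0679 CPM in parental libraries. That difference was not called in deep libraries alone (log2 fold change 0.29, adjusted p = 0.48). CDH1 (0.290 CPM in knockout and 0.315 CPM in parental cells) and EPCAM (0.385 and 0.445 CPM) were at low levels. The 4 cartilage markers summed to 52.5 to 68.9 CPM in knockout and 63.9 to 73.7 CPM in parental libraries, nearly all of it SOX9, and the 3 endothelial markers to 0.781 to 3.26 and 0.304 to 1.57 CPM. The part of these differences in the collagen results was not tested.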

How the data were processed

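The authors deposited estimated counts, here also called expected counts, of 62700 genes in each library. These values were made with kallisto 0.48.0 and hg38, per the submitters' processing notes. Annotation release, summing over transcripts and use of strand are not stated. Kallisto shares out reads among transcripts they match, so overlapping or similar genes can exchange counts. Per the labels' protocols, libraries were made from poly(A)-enriched RNA with a NEBNext Ultra II kit.

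Expected counts were rounded, genes kept by edgeR's filterByExpr (18979), libraries scaled by TMM, and knockout compared with parental in a robust quasi-likelihood fit in edgeR 4.0.16 (R 4.3.3) with genotype as the term, all 10 libraries, Benjamini-Hochberg adjustment over all genes tested and a threshold of 0.05. Library totals (1e6 counts) were 52.6 to 65.2 in replicates 1 to 3 and 321 to 385 in replicates 4 and 5. The biological coefficient of variation came to 0.31, or 0.0698 once depth was fitted. No library columns were left out.

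Sample titles give genotype and replicate number. Deviations from the group means were correlated across genes between samples of the same number. The values were 0.64, 0.584, 0.606, 0.899 and 0.894 for replicates 1 to 5. They were not set against samples of different numbers and can follow the split in depth, so they cannot show pairing by number. The replicate block is given beside a collagen gene whose call it changes and, as counts or shares, beside the classes and lists. Further alternatives were scaling by DESeq2 size factors or by library size alone, filtering at 1 CPM in 5 libraries or not at all, DESeq2 1.42.0 as the test, depth as a term, each depth alone, the median log2 fold change of each chromosome's protein-coding genes removed, and each library left out. Levels per kb divide CPM by the merged exon length from GENCODE 29 (GRCh38), whose positions were matched by gene ID for 58207 genes and for all 44 collagen genes.

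The collagen genes, their classes and the lists of collagen-handling genes (modification to receptors) and markers were chosen with earlier results of these data known. Every collagen gene tested is named, called ones at 2 CPM or more with each library's value, and up to 4 genes with the smallest adjusted p from each list of collagen-handling genes. Values per library of COL11A2, COL8A2 and COL4A4 and of genes not called were added after they were seen, as were sums without the most abundant genes and the alternatives for CCAR1. Floors cover counting error only.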

Additional observations from a re-analysis of the deposited data

Results flagged for a closer look

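In a check of the highest and lowest library of each genotype for each of the 30 tested collagen genes, 2 of 60 groups held a library that stood apart; chance gives about 1 in 20. COL1A1 was at 36.8 CPM in parental replicate 4, against 11.8 to 17.6 CPM in the other parental libraries. COL4A6 was at 2.92 CPM in knockout replicate 1, against 2.09 to 2.28 CPM in the other knockout libraries, all of which lay above the parental libraries.

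The knockout difference was set against depth for each tested collagen gene: a test of the difference between shallow and deep libraries called 2, and 1 more, COL6A2, is given for its opposite directions. For COL12A1 the deep log2 fold change exceeded the shallow one by 0.42 (edgeR adjusted p = 0.0224), with a fall at both depths. For COL11A1 the difference was -5.04 (adjusted p = 0.033); it rests on 0 and 1 counts in the deep knockout libraries, against 30 and 21 in the deep parental ones, so the size depends on the prior count and is no bound. For COL6A2 it was -1.25, and the genotypes were apart in opposite directions at the 2 depths, but the test of the difference did not pass (adjusted p = 0.0512). What separates the 2 depths was not tested.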

How the results depend on the processing

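Of the 16 called collagen genes, 12 kept their call in each of the 20 alternatives in which they were tested, none changed direction, and COL12A1, COL4A2, COL11A2 and COL5A2 lost it as given above. The replicate block added COL6A3 and COL4A1 and changed no other call among the collagen genes. Collagen genes called lower numbered 4 with chromosome medians removed, against 7. In deep libraries alone 5 of 10 fibrillar, 6 of 9 FACIT and 41 of 53 collagen-handling genes tested were called. In all libraries these were 3 of 9, 3 of 5 and 27 of 51. More genes of each list were tested in the deep fit, and it called 57% of all genes tested, against 36.6% in all libraries. Whether these lists gained more than all genes did was not tested. Of all genes, 15320 were called in deep libraries alone, 11619 with the replicate block and 12149 with depth as a term, against 6939 without them. Reversals were seen only in genes that were not called: in deep libraries alone for COL18A1 (-0.065), COL1A1 (-0.25), COL4A3 (0.183), COL9A2 (-0.178) and COL9A3 (0.718), in shallow libraries alone for COL1A2 (0.279), COL5A1 (0.495) and COL6A2 (0.76), and with the chromosome median removed for COL4A1 (0.284). COL6A2 also turned with library size only (0.0246), the replicate block (0.135) and depth as a term (0.111). Leaving out 1 library gave log2 fold changes of -0.86 to 0.31 for COL11A1, -0.0578 to 0.40 for COL18A1, -0.0246 to 0.47 for COL1A1, -0.73 to 0.38 for COL1A2, -0.18 to 0.64 for COL2A1, -0.35 to 0.51 for COL5A1, -0.24 to 0.48 for COL6A2 and -0.90 to 0.13 for COL9A3. The cause of these changes was not tested. With no filter on low counts all 44 collagen genes were tested, and 10 were called higher and 5 lower (34.1%, against 13.6% of all genes). Fibrillar genes called higher numbered 2 there, against 1 with the filter. The 14 genes that did not pass the filter had 5 to 255 counts in all.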
